A study of Mus musculus with 13 samples.

Results

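Regulators of G protein signalling (RGS proteins) were followed in sorted mouse splenic CD4 T cells through 8 genes, Rgs1, Rgs2, Rgs3, Rgs10, Rgs14, Rgs16, Rgs18 and Rgs19. The genes were taken by their symbols from a deposited table of 18649 genes, in which each of the 8 symbols occurred once. The PD1hi cells were CD4+ T cells with high surface PD-1 and no GFP from the Foxp3 reporter (3 libraries), the Treg cells were GFP positive and PD-1 negative (5 libraries), and the Tconv cells were negative for both (5 libraries). All 3 populations came from spleens of mice with GFP as a reporter of Foxp3, the lineage factor of regulatory T cells, and the labels name no strain, age, sex or treatment. By their titles the libraries belong to experiments 3, 5 and 6, in each of which all 3 populations are present, and 4 libraries are titled replicate, without saying whether separate animals were used, so that p-values measure a spread between these samples that may in part be technical.

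Receptors coupled to heterotrimeric G proteins signal while the alpha subunit holds GTP, and RGS proteins end the signal by speeding the hydrolysis of that GTP. Lymphocytes find their place in the spleen through chemokine and sphingosine 1-phosphate receptors, many of which couple to Gi, and RGS proteins are known for limiting how long and how strongly those receptors signal. The genes are described below in their subfamilies: the small R4 proteins Rgs1, Rgs2, Rgs3, Rgs16 and Rgs18, the R12 proteins Rgs10 and Rgs14, and Rgs19 of the RZ subfamily.

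Rgs16 and Rgs3 were the 2 members of the 8 that rose in PD1hi cells against both other populations, and their promoters are shown for that reason. RefSeq promoter windows (250 bases before to 50 bases after a start, build GRCm38.p6) matched 5 of the 8 genes: 1 window each for Rgs2, Rgs10 and Rgs16, 2 for Rgs3 and 3 for Rgs19. Rgs1, Rgs14 and Rgs18 are named only. The windows below run 5′ to 3′ on the plus strand, and the libraries do not show which of the 2 Rgs3 starts was used. Capitals mark matches, on either strand, to any of 8 motifs. These were the TGANTCA motif of AP-1, the GGAAA core bound by NFAT, the TGACGTCA motif known as CRE, the TTCNNNGAA motif of STAT proteins, the CACGTG motif known as E-box, the TATAAA motif known as TATA box, the GGGCGG motif known as GC box, and the CCAAT box, spelled as its name says.
Rgs16, chr1:153740103-153740402: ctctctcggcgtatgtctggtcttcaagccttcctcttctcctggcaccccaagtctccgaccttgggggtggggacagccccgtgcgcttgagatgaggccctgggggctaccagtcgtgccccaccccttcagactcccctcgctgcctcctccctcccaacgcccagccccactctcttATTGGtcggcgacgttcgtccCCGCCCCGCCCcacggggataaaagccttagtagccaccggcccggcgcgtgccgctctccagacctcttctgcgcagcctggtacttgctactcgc
Rgs3 first start, chr4:62559597-62559896: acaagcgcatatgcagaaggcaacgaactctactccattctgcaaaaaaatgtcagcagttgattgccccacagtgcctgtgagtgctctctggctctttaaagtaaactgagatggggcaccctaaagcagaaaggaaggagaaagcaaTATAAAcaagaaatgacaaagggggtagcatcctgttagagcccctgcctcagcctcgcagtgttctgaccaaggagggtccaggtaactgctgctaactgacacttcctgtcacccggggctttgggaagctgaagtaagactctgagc
Rgs3 second start, chr4:62619422-62619721: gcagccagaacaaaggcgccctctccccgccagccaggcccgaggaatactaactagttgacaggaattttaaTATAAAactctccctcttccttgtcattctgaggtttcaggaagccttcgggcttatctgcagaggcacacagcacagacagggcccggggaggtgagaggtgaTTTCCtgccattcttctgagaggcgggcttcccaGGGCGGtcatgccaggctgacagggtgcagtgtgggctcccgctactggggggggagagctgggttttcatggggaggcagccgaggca
The Rgs16 window held 1 CCAAT box and 2 GC boxes that overlap by 1 base, and neither Rgs3 window held a CCAAT box. Both Rgs3 windows held 1 TATA box, and the second also held 1 NFAT core and 1 GC box. Of 32851 RefSeq promoter windows of the same length, 37.4% held a CCAAT box, 35.7% a GC box, 13.6% a TATA box and 61.3% an NFAT core. The letters of AP-1 (7.81% of all windows), CRE (1.79%), STAT (8.3%) and E-box (7.15%) were in none of these 3 windows, and a match or its absence is a description of these letters only.

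Values are scaled counts, which are reads per gene scaled by the authors to a common library size, after subtraction of an added value of 1. Differences are log2 fold changes of the scaled count + 1 with their standard error (SE) from limma, fitted to 9 values (3 per population, libraries of the same experiment and population averaged), and a gene passed the test at a Benjamini-Hochberg adjusted p under 0.05 over 14177 genes, those that averaged a scaled count of 10 or more. All 8 members passed that minimum. In PD1hi against Tconv, 3 members rose (Rgs3, Rgs10 and Rgs16), 1 fell (Rgs19) and 4 did not pass, where 26.1% of all genes tested passed, 14.2% higher and 11.9% lower (54.4% of the passing genes were higher, and 65.4% when the libraries were scaled to equal totals). In PD1hi against Treg, 2 rose (Rgs3 and Rgs16), 2 fell (Rgs1 and Rgs19) and 4 did not pass, where 16.5% of all genes passed, 8.16% higher and 8.39% lower. In Treg against Tconv, 3 rose (Rgs1, Rgs3 and Rgs16), 1 fell (Rgs19) and 4 did not pass, where 14.4% of all genes passed, 8.73% higher and 5.66% lower. The median absolute log2 fold change of the 8 members was 0.61, 0.60 and 0.49 in these 3 comparisons in the same order, beside 0.41, 0.32 and 0.30 over all genes tested. The comparisons share their samples in pairs, so these counts are not independent of each other.

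**Figure D1:**
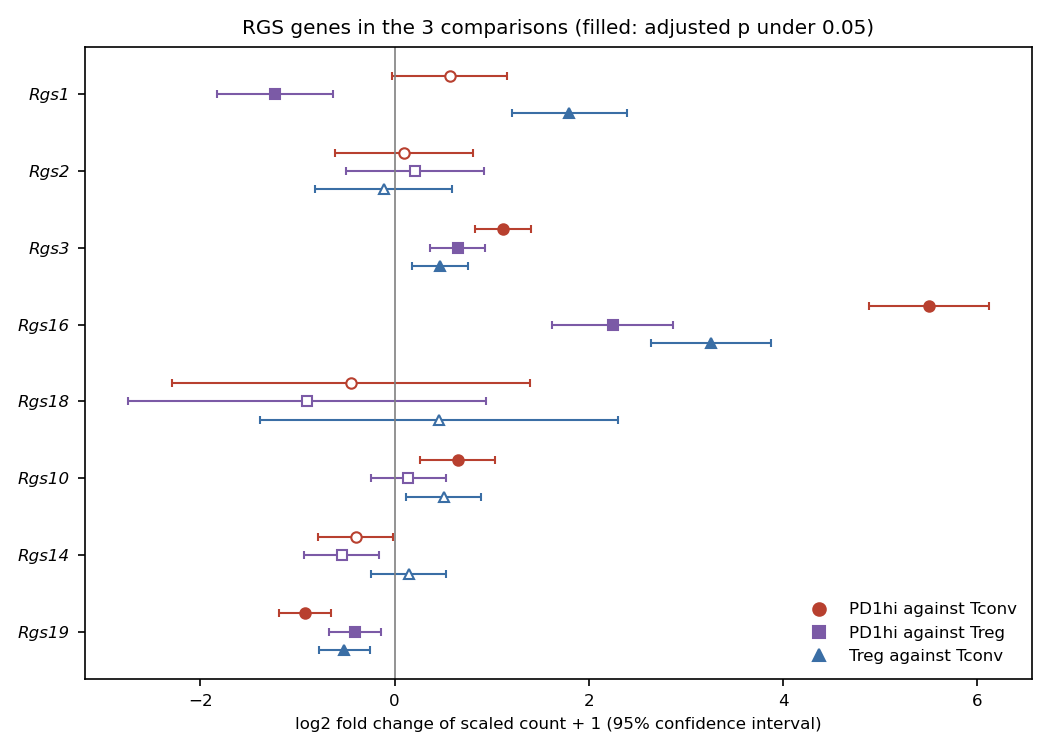
Log2 fold changes of the scaled count + 1 (x axis) with 95% confidence intervals for the 8 RGS genes (y axis) in PD1hi against Tconv, PD1hi against Treg and Treg against Tconv. Filled symbols have an adjusted p under 0.05, and the Rgs16 change of 5.50 in PD1hi against Tconv lies farthest from 0.

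Depth was 15971126 to 24216463 reads in genes per library, and the 7 members other than Rgs18 had 31 to 15679 reads in each library. The T cell genes of the marker list (Cd3d, Cd3e, Cd3g, Cd247, Cd4, Cd5, Cd28 and Lck) were all detected, with sums of 200200 to 207500 in PD1hi, 120900 to 145300 in Treg and 171500 to 186500 in Tconv. B cell marker sums over 9 genes were 1700 to 2319 in PD1hi, 822 to 1269 in Treg and 226 to 425 in Tconv, with most of the PD1hi sum in Cd22 (1488 to 1949). CD8 and NK cell marker sums over 7 genes were 2532 to 3950 in PD1hi, 973 to 1376 in Treg and 5243 to 7642 in Tconv. The full B cell sum ordered the populations as Rgs16 and Rgs3 did. The sum of its 8 genes other than Cd22 was 212 to 370.0 in PD1hi, 555 to 997 in Treg and 94.0 to 197 in Tconv. Most of that Treg sum lay in 1 gene, Cd79b (450 to 724, against 84.9 to 159 in PD1hi and 50.9 to 65.1 in Tconv). The order of the B cell sums thus depended on single genes. The part of B cells in the results was not tested. In these bulk samples, fewer cells with a transcript and less of it per cell cannot be told apart.

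Rgs16, a GTPase activator for Gi and Gq subunits that T cells induce on activation, showed the widest separation of the populations. It had 2494, 2291 and 2689.6 scaled counts in the PD1hi libraries of experiments 3, 5 and 6. It had 444 and 383 in the Treg libraries of experiment 3, 704 in that of experiment 5 and 398 and 591 in those of experiment 6, against 68.2 in the Tconv library of experiment 3, 67.3 and 70.4 in those of experiment 5 and 36.7 and 29.9 in those of experiment 6. Every PD1hi library was above every Treg library, and every Treg library above every Tconv library. Means were 2491 ± 200 in PD1hi, 537 ± 150 in Treg and 56.8 ± 20.3 in Tconv (SD, n = 3 values each). The log2 fold change was 5.50 ± 0.28 in PD1hi against Tconv (adjusted p = 1.70e-07), 2.24 ± 0.28 in PD1hi against Treg (adjusted p = 0.000151) and 3.26 ± 0.28 in Treg against Tconv (adjusted p = 1.25e-05). Within experiments 3, 5 and 6 the PD1hi value exceeded the Tconv value by 5.17, 5.04 and 6.29 and the Treg value by 2.59, 1.70 and 2.44 on the log2 scale. The Tconv libraries held 264 Rgs16 reads in all, so the level was low but not absent there. An antisense gene that is not in the table, Gm28513, shares 236 exon bases with Rgs16. Without a stated strand setting, its reads within those bases cannot be told apart from those of Rgs16.

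**Figure D2:**
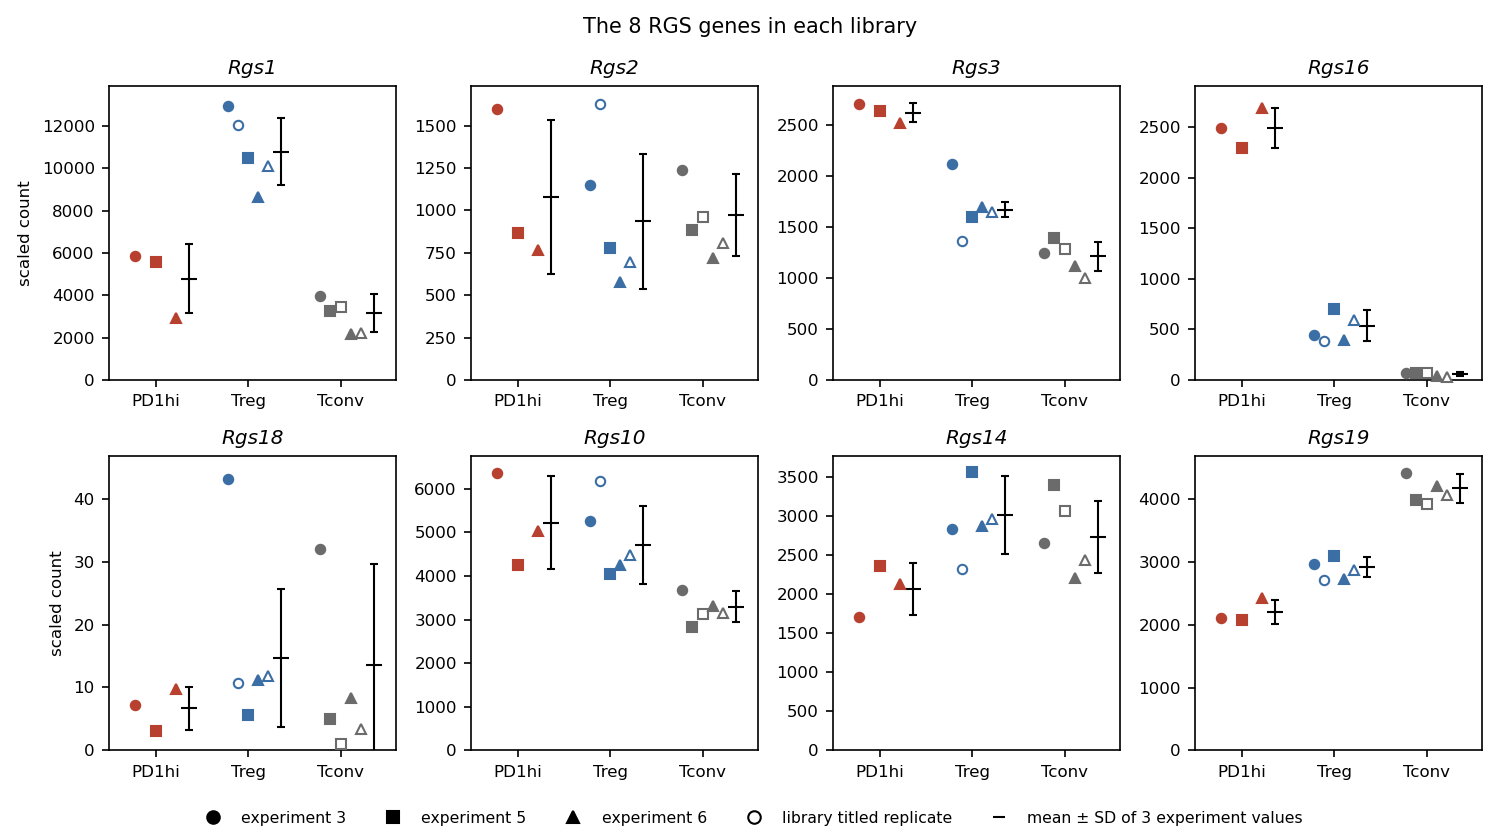
Scaled counts (y axis, linear from 0, a scale per gene) of the 8 RGS genes in PD1hi, Treg and Tconv, with 1 point per library, shapes for the experiment, open symbols for libraries titled replicate and bars for the mean ± SD of 3 experiment values (the Rgs18 bar of Tconv is cut at 0). Rgs16 and Rgs3 stood highest in all PD1hi libraries, Rgs1 in all Treg libraries and Rgs19 in all Tconv libraries.

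Rgs3, which acts on Gi and Gq and has long and short protein forms, was likewise highest in PD1hi, with smaller steps. Its scaled counts were 2706, 2638 and 2522 in the PD1hi libraries of experiments 3, 5 and 6. In Treg they were 2118 and 1367 in experiment 3, 1602 in experiment 5 and 1696 and 1645 in experiment 6, against 1245 in experiment 3, 1389 and 1286 in experiment 5 and 1121 and 998 in experiment 6 in Tconv. Every PD1hi library was above all others, while the lower Treg library of experiment 3 lay below the highest Tconv library. The log2 fold change was 1.12 ± 0.13 in PD1hi against Tconv (adjusted p = 5.62e-05), 0.65 ± 0.13 in PD1hi against Treg (adjusted p = 0.00417) and 0.47 ± 0.13 in Treg against Tconv (adjusted p = 0.0313). In each of the 3 experiments the values ran in the order PD1hi, Treg, Tconv. The Treg against Tconv call was lost when any 1 of the 3 Treg values, or the Tconv value of experiment 3 or 6, was left out, with adjusted p up to 0.159.

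Rgs1, which limits the response to chemokines in lymphocytes, was the member that stood apart in Treg. The PD1hi libraries had 5855, 5571 and 2905 scaled counts in experiments 3, 5 and 6. The Treg libraries had 12939 and 12018 in experiment 3, 10488 in experiment 5 and 8624 and 10089.6 in experiment 6, and the Tconv libraries had 3961 in experiment 3, 3241 and 3434 in experiment 5 and 2176 and 2219 in experiment 6. All Treg libraries were above all PD1hi and Tconv libraries, whereas the PD1hi library of experiment 6 lay within the Tconv range. Rgs1 fell by 1.23 ± 0.27 on the log2 scale in PD1hi against Treg (adjusted p = 0.00764) and rose by 1.80 ± 0.27 in Treg against Tconv (adjusted p = 0.000743). In PD1hi against Tconv the log2 fold change of 0.57 ± 0.27 (95% confidence interval -0.03 to 1.16) did not pass (adjusted p = 0.153). Within experiments 3, 5 and 6 PD1hi exceeded Tconv by 0.56, 0.74 and 0.40 on the log2 scale, the level of Rgs1 being lowest in experiment 6 in all 3 populations. With the experiment as a block the adjusted p was 0.0201, and without the PD1hi value of experiment 6 it was 0.0075, with a log2 fold change of 0.89.

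Rgs2, which prefers Gq among the alpha subunits, did not pass in any comparison. It had 1601, 867 and 766 scaled counts in PD1hi in experiments 3, 5 and 6. In Treg it had 1152 and 1629.5 in experiment 3, 776 in experiment 5 and 579.7 and 697 in experiment 6, against 1238, 886, 962, 719 and 806 in Tconv. The 3 populations overlapped, and experiment 3 held the highest value in each of them. The log2 fold changes were 0.10 in PD1hi against Tconv (95% confidence interval -0.61 to 0.80, adjusted p = 0.866), 0.21 in PD1hi against Treg (-0.50 to 0.92, adjusted p = 0.739) and -0.11 in Treg against Tconv (-0.82 to 0.59, adjusted p = 0.884). With the experiment as a block the SE of Rgs2 was 0.138 and the adjusted p 0.652, 0.357 and 0.67 in those comparisons.

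Rgs18, known from platelets and megakaryocytes, was close to undetected. It had 7, 3 and 9 reads in the PD1hi libraries, 46, 14, 6, 12 and 11 in the Treg libraries and 30, 5, 1, 7 and 4 in the Tconv libraries. The 2 highest values, 43.1 scaled counts in a Treg library and 32.0 in a Tconv library, both came from experiment 3. Those 2 libraries also had the highest myeloid marker sums of their populations (1712 and 1024), while the second Treg library of experiment 3 had a sum of 1392 with 10.7 scaled counts of Rgs18. The platelet and erythroid marker sum over 7 genes was 88.9 in that Treg library with 43.1. It was 103.5 in the second Treg library of experiment 6, which had 11.9 scaled counts of Rgs18. In the Tconv library of experiment 3 it was 76.7, the highest of Tconv. The part of myeloid cells or platelets was not tested. The log2 fold change was -0.45 ± 0.84 in PD1hi against Tconv (adjusted p = 0.745), -0.90 ± 0.84 in PD1hi against Treg (adjusted p = 0.546) and 0.45 ± 0.84 in Treg against Tconv (adjusted p = 0.811), so that a difference was not detectable at this depth. With 19, 89 and 47 reads in PD1hi, Treg and Tconv in all, the ratio of scaled reads in PD1hi against Treg was 0.402 (95% interval 0.231 to 0.665, counting error only, as for the other ratios of reads), and 46 of the 89 Treg reads came from 1 library.

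Of the R12 proteins, Rgs10, an activator of GTP hydrolysis by Gi that is abundant in immune cells, rose in PD1hi against Tconv. It had 6365, 4257 and 5027 scaled counts in PD1hi in experiments 3, 5 and 6. In Treg it had 5264 and 6184 in experiment 3, 4049.5 in experiment 5 and 4253 and 4482 in experiment 6, against 3671 in experiment 3, 2837 and 3119 in experiment 5 and 3308 and 3146 in experiment 6 in Tconv. All PD1hi and all Treg libraries were above all Tconv libraries, and PD1hi and Treg overlapped. The log2 fold change was 0.65 ± 0.18 in PD1hi against Tconv (adjusted p = 0.0169), a call lost when the PD1hi value of experiment 3, or that of Tconv in experiment 5 or 6, was left out (adjusted p up to 0.0631). It was 0.14 ± 0.18 in PD1hi against Treg (95% confidence interval -0.24 to 0.53, adjusted p = 0.664) and 0.51 ± 0.18 in Treg against Tconv (0.12 to 0.89, adjusted p = 0.0844, or 0.0116 with the experiment as a block).

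Rgs14, which carries a GoLoco motif that holds Gi in its GDP form and domains that bind Ras, had its lowest library in PD1hi and did not pass in any comparison. It had 1705, 2364 and 2136 scaled counts in PD1hi in experiments 3, 5 and 6. In Treg it had 2836 and 2324 in experiment 3, 3560.5 in experiment 5 and 2869.7 and 2962 in experiment 6, against 2654.5, 3393, 3065, 2206 and 2432 in Tconv. Within each of the 3 experiments the PD1hi value lay below both other populations, although libraries of different experiments overlapped. The log2 fold change was -0.40 ± 0.18 in PD1hi against Tconv (adjusted p = 0.122) and -0.55 ± 0.18 in PD1hi against Treg (adjusted p = 0.0566). With the experiment as a block both calls passed (adjusted p = 0.0409 against Tconv and 0.0159 against Treg). Treg against Tconv gave 0.14 ± 0.18 (adjusted p = 0.700).

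Rgs19, also called GAIP, a Gi-binding protein of the RZ subfamily, ran opposite to Rgs16 and Rgs3. It had 2102, 2081 and 2419 scaled counts in PD1hi in experiments 3, 5 and 6. In Treg it had 2974 and 2712 in experiment 3, 3094 in experiment 5 and 2728 and 2869 in experiment 6, against 4420.3 in experiment 3, 3989 and 3923 in experiment 5 and 4214 and 4068 in experiment 6 in Tconv. No library of any population overlapped with another population. Rgs19 fell by 0.92 ± 0.12 on the log2 scale in PD1hi against Tconv (adjusted p = 0.000137), fell by 0.41 ± 0.12 in PD1hi against Treg (adjusted p = 0.0393) and fell by 0.52 ± 0.12 in Treg against Tconv (adjusted p = 0.0123). The PD1hi against Treg call was lost in 11 of 20 alternatives (adjusted p up to 0.135), among them equal library totals and all but 1 of the fits that left out 1 value. The Treg against Tconv call was lost when the Treg value of experiment 6, or that of Tconv in experiment 3, was left out (adjusted p up to 0.0671). The CD8 and NK cell marker sum was highest in Tconv too, but unlike Rgs19 it was higher in PD1hi (2532 to 3950) than in Treg (973 to 1376). The part of those cells was not tested.

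Per kilobase of the exons of coding transcripts, Rgs10 had the highest level of the 8 genes in each population, with a mean of 4576 scaled counts per kb in PD1hi, 4135 in Treg and 2888 in Tconv. Rgs1 followed in PD1hi (1244) and Treg (2805), and Rgs19 followed in Tconv (1952). In PD1hi, Rgs1 (1244 ± 424), Rgs16 (1065 ± 85.3), Rgs19 (1029.8 ± 88.5) and Rgs14 (878 ± 142) followed in that order (SD, n = 3). Rgs1 and Rgs16, and Rgs16 and Rgs19, differed by less than the larger SD of each pair, and Rgs14 was below Rgs19 by slightly more than either SD. With the exons of all annotated transcripts as the length instead, Rgs10 kept the highest level in each population, but in PD1hi Rgs16 (1065) and Rgs19 (987) then stood above Rgs1 (688), so the order of Rgs1 depends on its length. Rgs3 (335, 213 and 155 per kb of coding transcripts in PD1hi, Treg and Tconv) and Rgs2 (331, 287 and 300 per kb) were at lower levels, and Rgs18 had 3.28, 7.24 and 6.70 per kb. The summed level per kb of the 8 genes was 9462 ± 1095 in PD1hi, 10322 ± 1086 in Treg and 7311 ± 668 in Tconv. Rgs16 made up 11.3 ± 1.48% of that sum in PD1hi, 2.26 ± 0.742% in Treg and 0.328 ± 0.103% in Tconv. Rgs1 made up 13.1 ± 4.17%, 27.1 ± 1.20% and 11.2 ± 2.31% in PD1hi, Treg and Tconv, and Rgs19 made up 11.0 ± 1.76%, 13.3 ± 1.56% and 26.8 ± 1.80% in the same populations. The Rgs16 share of PD1hi, the Rgs1 share of Treg and the Rgs19 share of Tconv each lay above the other populations by more than the SD of the 3 values.

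**Figure D3:**
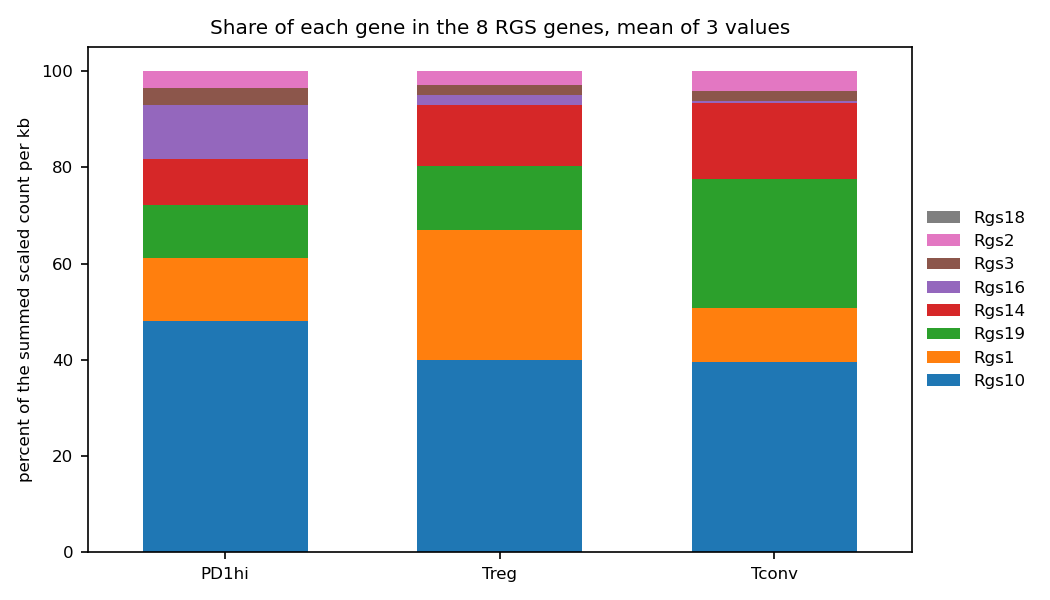
Share of each of the 8 RGS genes in their summed scaled count per kb (y axis, percent, mean of 3 values) in PD1hi, Treg and Tconv (x axis). The Rgs16 share was 11.3% in PD1hi, 2.26% in Treg and 0.328% in Tconv, and the Rgs19 share was 11.0%, 13.3% and 26.8%.

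Across the 9 values, log2 levels of Rgs3 and Rgs16 had a Pearson r of 0.966, and Rgs19 had an r of -0.963 with Rgs3 and -0.957 with Rgs16. These are descriptions over 9 values that share 3 populations and 3 experiments. Rgs10 had an r of 0.77 with Rgs16 and -0.775 with Rgs19, and Rgs1 had no r beyond 0.511 with any other member. Of all genes tested, those most like Rgs16 over the 9 values were Abcc3 (r = 0.994), Spock2 and Plcb4 (both 0.992), the last of them a phospholipase C downstream of Gq. Those most like Rgs3 were Mtx2 (0.994), Plxnb2 (0.992) and Tmem2 (0.992). For Rgs19 they were Acoxl (0.987), Galnt10 (0.983) and Plaur (0.981), for Rgs1 Gm2956 (0.982), Tmbim4 (0.978) and Ccrl2 (0.964), and for Rgs10 2810403D21Rik, Atp5j (both 0.966) and Ckap2 (0.962). For Rgs2 they were Tmem128 (0.975), Magoh (0.972) and the immediate early gene Fos (0.948), and for Rgs14 Lipe (0.977), Itgb7 (0.941) and Ddx51 (0.938). For Rgs18, at its few reads, they were Gm9781 (0.945), Gm4540 (0.939) and 1110058L19Rik (0.895).

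Of the 14 other RGS genes listed, 5 were in the table and 4 passed the minimum level, the fifth being Rgs20 with 6, 7 and 7 reads in PD1hi, Treg and Tconv. In the gene order of RefSeq (GRCm38), Rgs8 and Rgs16 are next to each other on chromosome 1, and Rgs2, Rgs1 and Rgs18 lie in another run of RGS genes of the same chromosome in which Rgs13 and Rgs21, not analysed here, stand between them. Rgs8, an R4 protein best known from Purkinje cells, had 259, 233 and 298 scaled counts in the PD1hi libraries. It had 4.68, 0, 0, 2.81 and 0 in the Treg libraries, against 8.53, 13.9, 0, 3.55 and 0 in the Tconv libraries. All PD1hi libraries were far above the others. Its 758 reads in PD1hi stood against 8 in Treg and 25 in Tconv, a ratio of scaled reads of 178 against Treg (95% interval 90.1 to 415) and 51.5 against Tconv (34.6 to 80.1). In limma the log2 fold change was 7.04 ± 0.62 in PD1hi against Treg (adjusted p = 9.01e-06) and 5.47 ± 0.62 in PD1hi against Tconv (adjusted p = 4.50e-05). Rgs8 and its neighbour Rgs16 both rose against both populations. Rgs8 passed the minimum level through PD1hi alone, and its few reads in Treg and Tconv do not allow a comparison of those 2 populations.

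The R7 proteins Rgs9 and Rgs11, which work as pairs with the beta subunit Gnb5, moved in opposite directions. Rgs9, known from photoreceptors and striatum, had 148, 131 and 115 scaled counts in PD1hi and 74.0, 65.9, 141, 112 and 102 in Treg, against 7.46, 0, 6.40, 7.10 and 0 in Tconv. PD1hi and Treg overlapped and both stood above Tconv, where 19 reads were counted in all. Rgs9 rose by 4.60 ± 0.40 in PD1hi against Tconv (adjusted p = 5.85e-06) and by 4.24 ± 0.40 in Treg against Tconv (adjusted p = 2.06e-05) on the log2 scale, with 0.36 ± 0.40 in PD1hi against Treg (adjusted p = 0.626). Rgs11 had 115, 131 and 100.02 scaled counts in PD1hi and 264, 136, 188, 265 and 223 in Treg, against 583, 701, 615, 697 and 670.5 in Tconv. Its populations did not overlap, and it fell by 2.47 ± 0.20 in PD1hi against Tconv (adjusted p = 3.67e-06) and by 0.86 ± 0.20 in PD1hi against Treg (adjusted p = 0.0100). Rgs12, an R12 protein like Rgs10 and Rgs14, had 239.8, 293 and 236 scaled counts in PD1hi and 114, 107, 142, 128 and 108 in Treg, against 136, 172, 208, 93.5 and 113 in Tconv. PD1hi was above all other libraries, with log2 fold changes of 1.05 ± 0.26 against Treg (adjusted p = 0.0147) and 0.87 ± 0.26 against Tconv (adjusted p = 0.0260). Rgs8, Rgs11 and Rgs12 each share exon bases with a gene on the other strand (70 with Gm29529, 138 with Arhgdig and 467 with Gm43791). Without a stated strand setting, reads within those shared bases cannot be told apart.

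**Figure D4:**
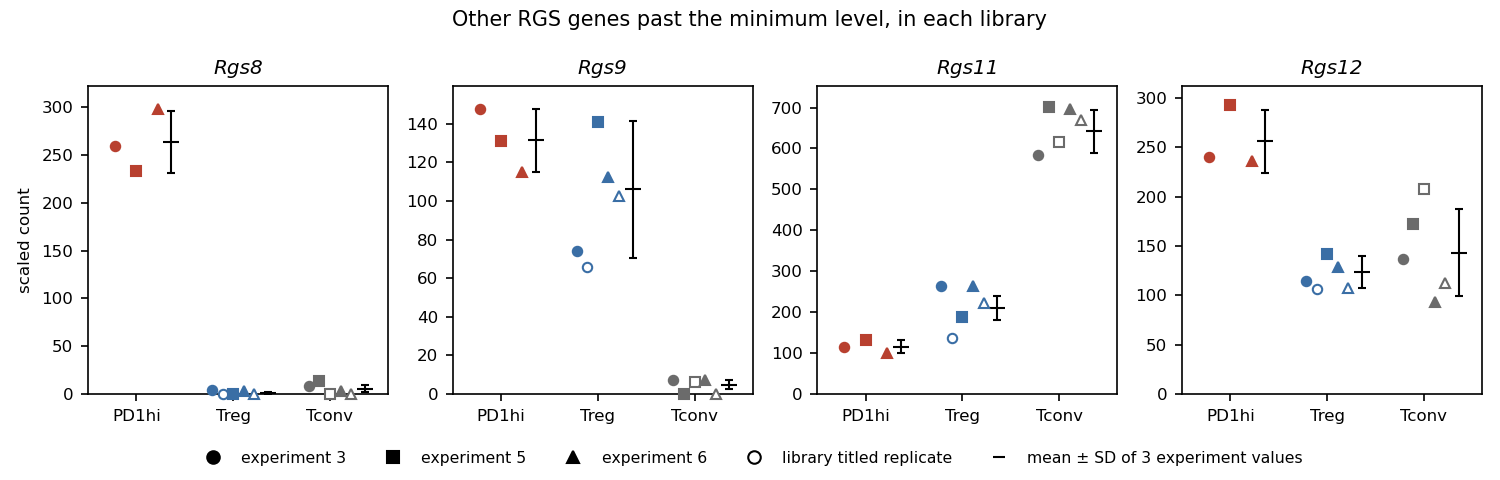
Scaled counts (y axis, linear from 0) of Rgs8, Rgs9, Rgs11 and Rgs12 in PD1hi, Treg and Tconv, with 1 point per library, shapes for the experiment, open symbols for libraries titled replicate and bars for the mean ± SD of 3 experiment values. Rgs8 lay between 233 and 298 in PD1hi and at 13.9 or below in the other libraries, and Rgs11 was lowest in PD1hi.

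Of the alpha subunits on which RGS proteins act, Gnaq and Gna14 of the Gq family and Gna13 of the G12 family rose in PD1hi against both other populations. Of 10 G alpha genes tested with limma, 4 rose and 0 fell in PD1hi against Tconv (2 lower at an unadjusted p under 0.05), and all 4 are named here. In PD1hi against Treg 3 rose and 2 fell, the falls being Gna15 (-1.11 ± 0.28) and Gnal (-0.67 ± 0.16), which are named after their values were seen. Gna15 is also of the Gq family and did not pass against Tconv (-0.71 ± 0.28, adjusted p = 0.0857). Gna11, of the Gq family too and likewise named afterwards, did not pass against Tconv (-0.27 ± 0.16, adjusted p = 0.232) or Treg (-0.09 ± 0.16, adjusted p = 0.773). The Gq family genes thus did not move together. In Treg against Tconv 2 rose, Gnaq and Gna14, and 0 fell, also at an unadjusted p under 0.05. Of all genes tested, 26.1%, 16.5% and 14.4% passed in PD1hi against Tconv, PD1hi against Treg and Treg against Tconv. No list was tested against those shares. Gnaq averaged 3407 ± 65.0 scaled counts in PD1hi, 1308 ± 221 in Treg and 340.2 ± 37.4 in Tconv (SD, n = 3 each), a log2 fold change of 3.33 ± 0.16 in PD1hi against Tconv and 1.39 ± 0.16 in PD1hi against Treg. Gna14, another Gq family subunit, averaged 528 ± 164 in PD1hi, 85.4 ± 38.8 in Treg and 19.5 ± 7.40 in Tconv, with changes of 4.70 ± 0.42 and 2.69 ± 0.42 against Tconv and Treg. Gna13, which activates RhoA through RGS-box exchange factors, averaged 9277 ± 838 in PD1hi, 3870.5 ± 267 in Treg and 3563 ± 299 in Tconv, with changes of 1.38 ± 0.13 and 1.26 ± 0.13. Its relative Gna12 rose by 1.78 ± 0.43 against Tconv (adjusted p = 0.00894), with 1.02 ± 0.43 against Treg (adjusted p = 0.145). Gna12 was 289, 215 and 791 in PD1hi in experiments 3, 5 and 6, so the size of its rise leans on experiment 6. It was 285, 126 and 162 in Treg and 94.8, 117 and 107 in Tconv. The Gi subunits Gnai2 (0.72 ± 0.35, adjusted p = 0.162) and Gnai3 (0.03 ± 0.22, adjusted p = 0.948), likewise named after their values were seen, did not pass in PD1hi against Tconv. RefSeq places Gna13 next to Rgs9 on chromosome 11, and those 2 genes differed in that Gna13 did not pass in Treg against Tconv (0.12 ± 0.13, adjusted p = 0.636), where Rgs9 rose.

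Among 11 tested genes of the RGS-box and partner list, 3 rose in PD1hi against Tconv, 2 rose in PD1hi against Treg, and 2 rose and 2 fell in Treg against Tconv. In limma 0 of them fell in either PD1hi comparison, also at an unadjusted p under 0.05. The share of all genes tested that passed was 26.1% in PD1hi against Tconv, 16.5% in PD1hi against Treg and 14.4% in Treg against Tconv. The exchange factor Arhgef12 rose by 1.49 ± 0.20 in PD1hi against Tconv (adjusted p = 0.000134), with -0.08 ± 0.20 in PD1hi against Treg (adjusted p = 0.833) and a rise of 1.58 ± 0.20 in Treg against Tconv (adjusted p = 0.000185). Gnb5, the partner of Rgs9 and Rgs11, averaged 256 ± 84.4 in PD1hi, 226 ± 60.5 in Treg and 105 ± 19.3 in Tconv, and rose by 1.24 ± 0.30 in PD1hi against Tconv (adjusted p = 0.00891) and by 1.09 ± 0.30 in Treg against Tconv (adjusted p = 0.0295). Of the GoLoco proteins, Gpsm1 rose in PD1hi against Tconv (0.96 ± 0.30, adjusted p = 0.0323) and Gpsm2 rose in PD1hi against Treg (0.97 ± 0.27, adjusted p = 0.0295). Gpsm3, named after its values were seen, rose there too (0.63 ± 0.13, adjusted p = 0.00458), and Gpsm2 (-1.02 ± 0.27) and Gpsm3 (-0.68 ± 0.13) were the 2 that fell in Treg against Tconv.

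Of 10 beta and gamma genes tested, 1 rose and 2 fell in PD1hi against Tconv and also against Treg, and 1 rose (Gng12, 1.73 ± 0.29) and 0 fell in Treg against Tconv in limma, also 0 at an unadjusted p under 0.05. The gamma subunit Gng2 rose by 1.20 ± 0.15 against Tconv and 1.27 ± 0.15 against Treg, whereas Gng12 fell by 1.70 ± 0.29 and fell by 3.44 ± 0.29, and Gngt2 fell by 1.49 ± 0.28 and fell by 1.33 ± 0.28. Of 7 receptor kinases and arrestins tested with limma, 1 rose and 0 fell in PD1hi against Tconv, 2 rose and 0 fell in PD1hi against Treg, and 0 changed in Treg against Tconv. At an unadjusted p under 0.05 the falls were 0, 1 and 1 and the rises 2, 3 and 1 in these comparisons. Beside this list and the beta and gamma list, 26.1%, 16.5% and 14.4% of all genes tested passed in the same comparisons. Grk5 rose by 1.15 ± 0.31 against Tconv and 1.52 ± 0.31 against Treg, and Adrbk2, the gene of GRK3, rose by 3.97 ± 1.15 against Treg (adjusted p = 0.0342), with 3.09 ± 1.15 against Tconv (adjusted p = 0.0696). Adrbk2 was low throughout, at 66.4 ± 33.8 scaled counts in PD1hi, 5.56 ± 7.18 in Treg and 15.8 ± 24.1 in Tconv.

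Of 14 effector genes, 4 rose and 4 fell in PD1hi against Tconv, 2 rose and 2 fell in PD1hi against Treg, and 1 rose and 3 fell in Treg against Tconv. Over all genes tested, 26.1%, 16.5% and 14.4% passed in these comparisons. Pik3r5, the p101 subunit of the PI3 kinase that responds to beta and gamma subunits, fell by 3.16 ± 0.22 in PD1hi against Tconv and fell by 1.51 ± 0.22 in PD1hi against Treg. Rasgrp2, which activates the integrin regulator Rap1, fell by 2.83 ± 0.23 and fell by 1.07 ± 0.23. The adenylyl cyclase Adcy6 fell by 3.12 ± 0.55 against Tconv (adjusted p = 0.00112), with -1.25 ± 0.55 against Treg (adjusted p = 0.156). Plcb4, the phospholipase named above for its likeness to Rgs16, rose by 2.53 ± 0.21 against Tconv and 0.82 ± 0.21 against Treg. The other calls of this list, named after their values were seen, were rises of Adcy9 (1.70 ± 0.51), Rap1a (0.97 ± 0.16) and Prex1 (0.70 ± 0.18) and a fall of Dock2 (-0.73 ± 0.16) in PD1hi against Tconv, and a rise of Prex1 (adjusted p = 0.0023) in PD1hi against Treg. Adcy9 was 54.3, 48.5 and 167 in PD1hi in experiments 3, 5 and 6, against 18.1, 37.4 and 17.5 in Tconv. In Treg against Tconv, Plcb4 rose (1.71 ± 0.21) and Pik3r5 (-1.65 ± 0.22), Rasgrp2 (-1.75 ± 0.23) and Adcy6 (-1.87 ± 0.55) fell.

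Of 22 chemokine and sphingosine 1-phosphate receptors and related receptors tested, 6 rose and 8 fell in PD1hi against Tconv, 7 rose and 10 fell in PD1hi against Treg, and 7 rose and 7 fell in Treg against Tconv. The shares of all genes tested that passed were 26.1%, 16.5% and 14.4% in these comparisons. The 4 with the largest change in either PD1hi comparison are named first. The sphingosine 1-phosphate receptor S1pr3 rose by 4.32 ± 0.99 against Tconv and 3.97 ± 0.99 against Treg, at 171 reads in PD1hi, 24 in Treg and 22 in Tconv. S1pr3 passed the minimum level through PD1hi alone, so its rises, counted above, are of a gene kept for its level in that population. Ccr6, the receptor of CCL20, fell by 2.21 ± 0.35 against Tconv and fell by 4.76 ± 0.35 against Treg. Ccr2, a receptor of inflammatory chemokines, fell by 2.86 ± 0.30 and fell by 4.12 ± 0.30. Ccr3 fell by 5.39 ± 0.96 against Treg (adjusted p = 0.00194), with -1.60 ± 0.96 against Tconv (adjusted p = 0.256). Among the other calls of this list, 4 are named after their values were seen, with changes against Tconv and Treg in that order. These were Cxcr5 (3.54 ± 0.15 and 1.91 ± 0.15), S1pr2 (2.95 ± 0.24 and 2.40 ± 0.24), Ccr7 (-3.28 ± 0.13 and -1.39 ± 0.13) and Ccr9 (-3.17 ± 0.23 and -3.63 ± 0.23).

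**Figure D5:**
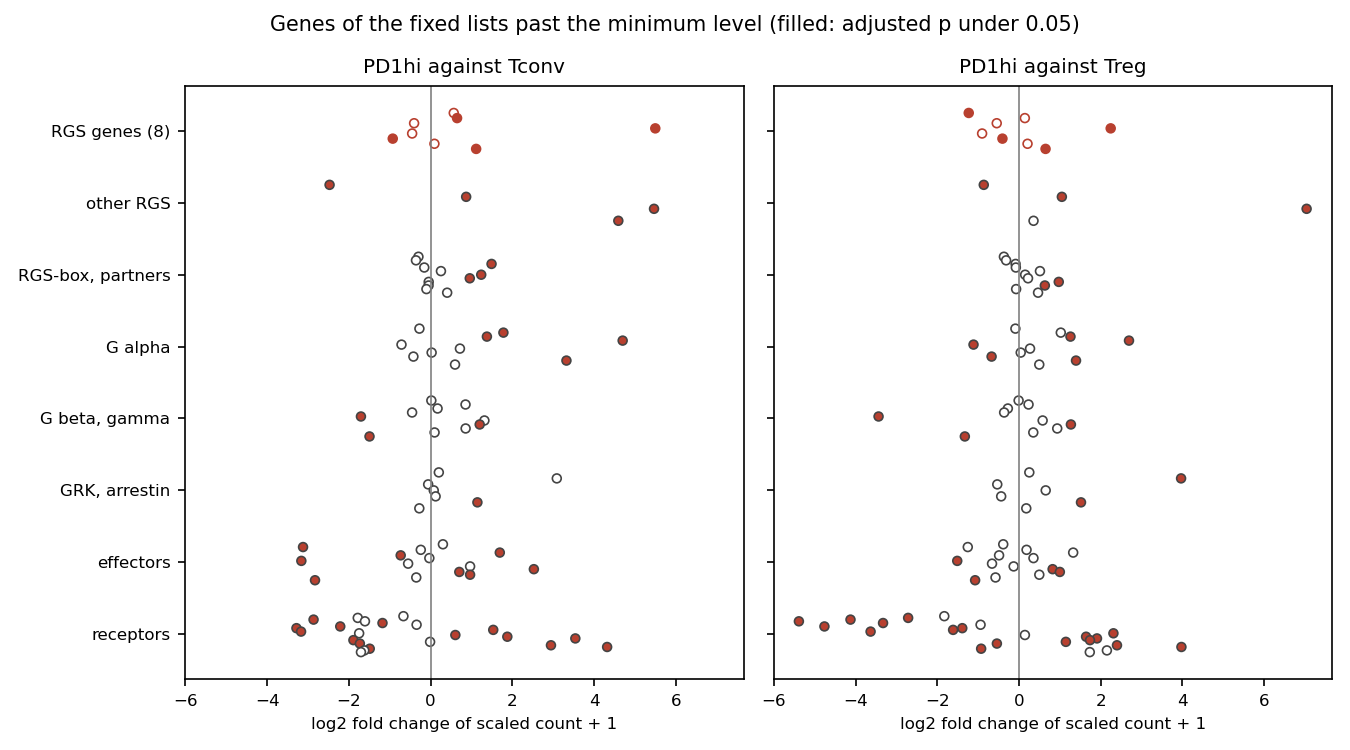
Log2 fold changes of the scaled count + 1 (x axis) in PD1hi against Tconv and in PD1hi against Treg for the 8 RGS genes and for other genes of the pathway by list (y axis), with 1 point per gene past the minimum level and filled points for an adjusted p under 0.05. Rgs16 at 5.50 and Rgs8 at 5.47 are the points farthest to the right in PD1hi against Tconv, where Rgs8 passed the minimum level through PD1hi alone.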

How the data were processed

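RNA of sorted cells was depleted of ribosomal RNA and sequenced on an Ion Torrent instrument, per the labels' protocols. Per the submitters' processing notes, limma, HTSeq 0.5.4 and Picard were run, with mm9, hg19 and GRCh37 as builds. Which aligner and strand setting were chosen is not given in the sources used here. Values deposited by the authors are in the unit signal, scaled by size factors. In each library, subtracting 1 from the deposited signal left whole multiples of 1 fixed step (within 0.001 reads), which was taken as the value of 1 read, and the values less 1 are the scaled counts. The recovered reads served for depth, low levels and ratios, not for a count model, because of the added value.

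Libraries that share a population and an experiment were averaged to 9 values, and log2(scaled count + 1) was fitted with limma 3.58.1 in R 4.3.3 with an intensity trend, all 3 populations together, 2-sided, for 14177 genes with a mean of at least 10. By chi-square over its degrees of freedom, the 4 pairs titled replicate differed by 7.77 to 73.5 times counting noise. The 73.5 was that of Treg in experiment 3, and the other titled pairs lay at 7.77 to 9.05. Pairs from different experiments differed by 15.4 to 92.7 times. Those with the second Treg library of experiment 3 lay at 72.3 to 92.7, and those with the PD1hi library of experiment 6 at 59.5 and 66.2. The remaining pairs lay at 15.4 to 36.5. The experiments in the titles pair the populations as a shared batch. Deviations of same-experiment values from their population means correlated at 0.243, 0.218 and 0.298 between Treg and Tconv. Between PD1hi and the others they correlated at -0.07 to 0.197. For the 8 members the blocked value is printed where it changes a call. Single genes of the other lists were not followed with the block or in the other alternatives. Exon lengths for levels per kb are unions of the exons of basic coding transcripts in GENCODE vM21, matched by gene ID. The low-value minimum, the pseudocount, the scaling, the use of replicate libraries and each left-out value were varied. All 8 members are named in each comparison. In the other lists, genes past the test in PD1hi against Tconv or against Treg are named by the size of their change, at most 4 per list, and the 3 genes most like each member by Pearson r. The members and lists were chosen with earlier results of these data known.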

Additional observations from a re-analysis of the deposited data

Results flagged for a closer look

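Rgs18 stood out in 2 libraries of experiment 3, where 1 library lay far from the other 4 of its population. In Treg it was 43.1 scaled counts in the first library of experiment 3, against 5.64 to 11.9 in the other 4 Treg libraries. In Tconv it was 32.0 in the library of experiment 3, against 1.07 to 8.29 in the other 4 Tconv libraries. These were 46 and 30 reads. The comparison was made for 16 sets of 5 libraries, and chance flags about 1 in 20 sets of independent, normally distributed values. These sets hold libraries that share an experiment, and Rgs18 has few reads, so the rate for them is not known.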

How the results depend on the processing

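Over 20 alternatives (19 for Rgs18, which lies below a minimum mean of 50), no member's passing change turned direction, and these passed under each of them: Rgs16 in all 3 comparisons, Rgs3 in both PD1hi comparisons, Rgs19 in PD1hi against Tconv, and Rgs1 in PD1hi against Treg and Treg against Tconv. The count of members past the test in Treg against Tconv was 2 when the Treg value of experiment 6, or that of Tconv in experiment 3, was left out, and 2 to 4 over the 9 fits that left out 1 value, beside 4 in the full fit. Over the same fits it was 3 to 5 in PD1hi against Tconv and 3 to 4 in PD1hi against Treg. With the experiment as a replicate block, 6, 5 and 5 members passed in PD1hi against Tconv, PD1hi against Treg and Treg against Tconv, out of 3974, 2579 and 2204 genes. The calls gained were Rgs1 and Rgs14, Rgs14, and Rgs10, and none was lost. Rgs14 in PD1hi against Treg also passed with duplicateCorrelation, with the first libraries alone and without the second Treg library of experiment 3. Rgs10 in Treg against Tconv also passed with duplicateCorrelation, with equal library totals and with only the 2 populations in the fit. With equal totals 65.4% of the calls in PD1hi against Tconv were higher, beside 54.4% as scaled by the authors, and the median log2 fold change of all genes was 0.14. Depth limits Rgs18 and Rgs20. Only 3 values per population bear on each test, and with 1 value left out a population has 2.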
